A study of Mus musculus with 14 samples.

Results

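The interval from day 3 to day 5 of differentiation was examined in female mouse ES cells in which Setdb1 was knocked down. It is covered by 8 of the 14 RNA-seq libraries, chosen by their labels: 4 libraries of day 3 and 4 of day 5, which are shSetdb1.4 replicates 1 and 2 and shSetdb1.6 replicates 1 and 2 at each day. Each day 5 library was set against the day 3 library with the same hairpin and replicate number. All libraries come from Setdb1+/+ Xist∆A/+ ES cells, derived from E3.5 embryos and used as a single F1 line. The labels give the cross as 129/C57 dams with CAST sires, whereas the paper names 129 dams for these cells, and the reference genome is that of C57BL/6. The reference base is called 129 here, and any C57 sequence on the maternal X chromosome was not checked. The other libraries are untransduced cells of day 0 and cells transduced with a non-silencing hairpin (Nons), sampled at day 3 and day 5, with 2 replicates in each group. The study describes the replicates as 2 independent experiments. The ES cells were moved stepwise from 2i plus LIF, which keeps them undifferentiated, into serum medium, and transduced cells were selected with puromycin. The sources differ on the day of transduction, and the paper mentions the presence of XO cells in this system.

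In female mammals one X chromosome is silenced early in development, when the long RNA Xist coats it and transcription, histone marks and finally DNA methylation change along its length. Setdb1 is a histone methyltransferase that places H3K9 methylation and silences repeats and some genes. The Xist∆A allele of the cells is on the 129 X chromosome, which stays active (Xa), and the CAST X chromosome is the one that becomes inactive (Xi), and silencing is read as a fall of CAST relative to 129 reads.

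The hairpins against Setdb1 differ in the site they target, so both are shown, as the 22-base antisense strand of each designed oligonucleotide with bases 2 to 8 (the seed) in capitals.
shSetdb1.4: tTTGTCTGcaaagtcatctgtc
shSetdb1.6: tAGATCTTgagaactgcttttc
The complement of shSetdb1.4 lies at chr3:95327805-95327826 (mm10, minus strand), in the coding sequence of exon 16 of 22 of Setdb1. That of shSetdb1.6 lies at chr3:95348003-95348024, in the coding sequence of exon 5 of the same transcript. Each complement was found in 3 of the 3 protein-coding Setdb1 transcripts of the annotation. Setdb1 is on chromosome 3 and the table holds X-linked positions only, so the knockdown itself was not checked here, nor were the autosomal markers of ES cells.

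The deposited values are read counts of the 129 and the CAST base at 2239 X-linked SNPs. The knockdown libraries held between 39592 and 71556 of these reads at day 3 and between 72083 and 101511 at day 5. Each of the 4 pairs had more of them at day 5, and the full depth of the libraries is not known here. Counts were summed over the SNPs of a gene, and 247 of the 355 genes with SNPs had at least 10 reads in every library and were tested. The Xi/Xa ratio is (CAST + 1)/(129 + 1) and is given on the log2 scale, where 0 means equal reads of both alleles. In what follows, 4 values of one day are in the order shSetdb1.4 replicate 1, shSetdb1.4 replicate 2, shSetdb1.6 replicate 1, shSetdb1.6 replicate 2.

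Across the chromosome the CAST allele was not silenced further in a uniform way between day 3 and day 5 of knockdown. The library median of the log2 Xi/Xa ratio, over SNPs with at least 10 reads, was 0 in all 4 libraries at day 3. At day 5 it was -0.27, 0.19, -0.090 and 0.027. The median therefore fell with both hairpins in replicate 1 and rose with both in replicate 2, with mean changes of -0.18 and 0.11. Over the 4 pairs the change was -0.036 ± 0.19 (SD, n = 4), which is smaller than the spread between pairs (exact paired permutation test, two-sided, p = 0.75, where the smallest p that 4 pairs allow is 0.13). In Nons the median fell in both replicates, by 0.36 ± 0.16 (SD, n = 2). Day 5 Nons replicate 2 had the fewest reads of all libraries. It held 32972 reads and 783 SNPs with at least 10 reads, against 79969 and 1405 in day 3 Nons replicate 2. All comparisons with Nons rest in part on this library. The change with knockdown lay above that of Nons by 0.32 ± 0.047 (SD, n = 2 replicates), with p = 0.111 when the label Nons was exchanged exactly among the 3 hairpins of each replicate, the smallest p of the 9 arrangements of this exact permutation test. Because these are bulk libraries, fewer cells of a type and less RNA per cell cannot be told apart, and the share of XO cells in each library was not measured here.

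**Figure D1:**
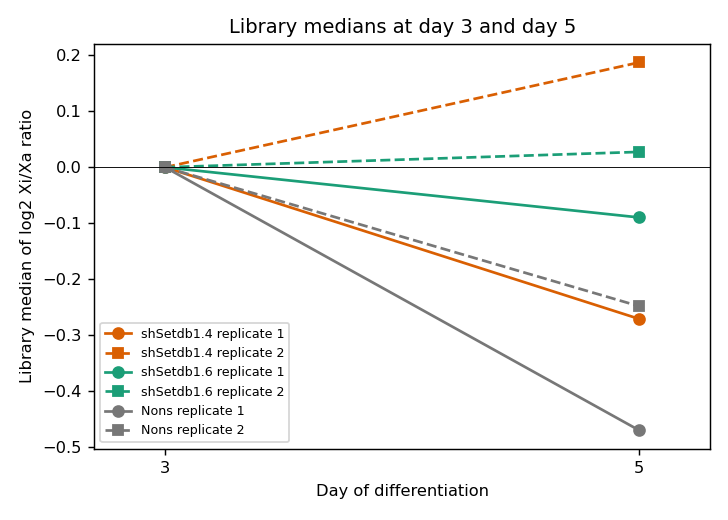
Library median of the log2 Xi/Xa ratio (vertical axis) by day of differentiation, 3 and 5 (horizontal axis), with 1 line for each hairpin and replicate. All lines start at 0, both replicate 1 knockdown lines end below 0 (-0.27 and -0.090) and both replicate 2 knockdown lines end above it (0.19 and 0.027).

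In single genes the ratio moved in both directions. At an adjusted p under 0.05 in edgeR's quasi-likelihood test with the replicate as a block, 26 of 247 genes changed (10.5 %). The ratio was lower at day 5 in 15 of them (6.07 % of genes tested) and higher in 11 (4.45 %), and the median log2 change over all genes was -0.013. All 11 higher genes rose in the 4 pairs, and 11 of the 15 lower genes fell in the 4 pairs. The libraries of the 2 days did not overlap in 7 of the lower genes and in 9 of the higher genes. Over all 247 genes 5.67 % were lower and 5.26 % higher at day 5 without overlap. The number of calls depended on single libraries: it was 15, 13, 14 and 14 without each day 3 library in turn and 15 and 11 without day 5 shSetdb1.6 replicate 1 and replicate 2. When each library's ratios were first centred at 0, 32 genes changed, 17 higher and 15 lower. A block for each hairpin and replicate was used in a fit of the 8 knockdown libraries alone. It gave 20 genes, all among the 26, and the calls of Prps1, Klf8, Utp14a, Gm364, Flna and Usp9x were lost.

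The genes that lost CAST relative to 129 reads despite the knockdown were led by Ap1s2, which encodes a subunit of the AP-1 clathrin adaptor. Its log2 ratio at day 3 was 2.49, 2.08, 2.30 and 2.39, and at day 5 it was 0.80, 0.14, 1.11 and 0.78. Ap1s2 thus began with far more CAST than 129 reads and kept an excess of CAST reads in all 4 libraries of day 5. The log2 change was -1.60 (SE 0.17, adjusted p = 1.98e-19), and it came from the CAST reads (-1.60, SE 0.20), while the 129 reads changed by -0.01 (SE 0.22). In the untransduced cells of day 0 the ratio of Ap1s2 was already 1.75 and 2.13.

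Zdhhc9, Foxo4 and Pnma5 followed, and their coding SNPs with the most reads in the knockdown libraries are shown because the allele counts rest on such positions. The 29 bases are from GENCODE transcripts on the strand of the mRNA, with the reference base, which is counted as 129, in capitals at position 15 from the 5′ end. Klhl13, which changed in the other direction, is placed beside them.
Zdhhc9: ttctccatggccacGctgttgaggacaag
Foxo4: aggccggagtctgaAgtgctagcagaaga
Pnma5: gccagggtaaggcaCccaacttcttacta
Klhl13: cgtttggttacactCggaggagtcctgag
The window of Zdhhc9 is chrX:48194628-48194656 (mm10, minus strand, exon 3 of 10), and the CAST allele differs by G15T. The Foxo4 window is chrX:101258546-101258574 (plus strand, exon 2 of 3), with A15G. That of Pnma5 is chrX:73035620-73035648 (minus strand, its single exon), with C15T. For Klhl13 it is chrX:23235543-23235571 (minus strand, exon 5 of 7), also with C15T. None of the 13 SNPs of Ap1s2 is coding, so no window is shown for it. Summed over the 4 libraries of a day, the Zdhhc9 SNP had 26 CAST and 37 129 reads at day 3 and 37 and 79 at day 5. The Klhl13 SNP had 252 CAST and 259 129 reads at day 3, and 1392 and 555 at day 5.

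Zdhhc9 encodes a palmitoyltransferase. Its log2 ratio was -0.32, -0.67, -0.60 and 0.15 at day 3 and -1.45, -1.05, -1.27 and -1.26 at day 5. All day 5 libraries lay below all day 3 libraries, with a log2 change of -0.91 (SE 0.20, adjusted p = 0.000283), and 11 of 11 SNPs with enough reads had a lower ratio at day 5. Its 129 reads were called higher, and its CAST reads were not called. The call was lost without day 3 shSetdb1.6 replicate 2 and with 1 SNP per gene, and the adjusted p over all alternatives was between 0.000253 and 0.160.
Foxo4 encodes a forkhead transcription factor. Its log2 ratio was 0.00, 0.76, 1.00 and 0.50 at day 3 and -0.64, -0.01, -0.17 and -0.23 at day 5, a log2 change of -0.81 (SE 0.20, adjusted p = 0.000871). In this gene 129 reads rose by 1.22 on the log2 scale (SE 0.21, adjusted p = 0.000191), while the change of the CAST reads did not pass the test (0.39, SE 0.18, adjusted p = 0.0894). Of its SNPs, 5 of 5 had a lower ratio at day 5. The call was lost without day 3 shSetdb1.4 replicate 2 or day 3 shSetdb1.6 replicate 1.
Pnma5, a member of the paraneoplastic Ma antigen family, had log2 ratios of -0.63, -0.11, -0.49 and -0.20 at day 3 and -1.17, -0.88, -0.89 and -1.07 at day 5. The log2 change was -0.63 (SE 0.17, adjusted p = 0.00492). Reads of both alleles fell, by 1.15 for CAST and by 0.52 for 129 on the log2 scale. The call was lost without day 3 shSetdb1.4 replicate 2 or day 5 shSetdb1.6 replicate 2.

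The other genes chosen by the same rule with a lower ratio in all 4 pairs were Xlr3a, Gprasp2, Arxes2, Prps1, Ubl4a and Klf8. Their log2 changes lay between -0.39 for Prps1, which makes the nucleotide precursor PRPP, and -1.11 for Gprasp2, a sorting protein of G protein-coupled receptors. Gprasp2 went from 0.34, 1.34, 0.20 and 0.12 at day 3 to -0.24, -0.58, -0.85 and -0.75 at day 5. In Prps1, Ubl4a and Klf8 the libraries of the days overlapped. The calls of Prps1, Ubl4a and Klf8 held in 3, 3 and 1 of the 8 fits that leave out 1 library, and those of Klf8 and Prps1 were lost without the block. With DESeq2 the calls of Klf8, Ubl4a and Arxes2 were lost, and with 1 SNP per gene those of Prps1, Arxes2 and Xlr3a. Those of Xlr3a, Arxes2 and Gprasp2 held in 6, 5 and 4 of these fits, with Arxes2 lost without day 5 shSetdb1.6 replicate 1, day 3 shSetdb1.4 replicate 2 or day 3 shSetdb1.6 replicate 2. Xlr3a and Gprasp2 were lost without day 3 shSetdb1.6 replicate 1 or day 5 shSetdb1.6 replicate 2, and Gprasp2 also without replicate 2 of shSetdb1.4 at either day. Xlr3a, Prps1 and Arxes2 belong to families of similar copies, so reads could be placed on the wrong copy.

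Tceal9, Arxes1, Nxf3, Utp14a and Gm364 are the remaining 5 genes called lower. Tceal9, a small protein of the Tceal and Bex gene families, had the second smallest adjusted p among the lower genes (log2 change -0.95, SE 0.13, adjusted p = 1.47e-10), but its ratio fell in 3 of 4 pairs. It was -0.30, -0.07, -0.28 and 0.53 at day 3 and -0.97, -0.02, -1.91 and -1.02 at day 5, so that shSetdb1.4 replicate 2 did not move down with the others. The change came with more 129 reads (1.05, SE 0.15) and CAST reads that did not pass the test (0.12, SE 0.18). Utp14a fell in all 4 pairs but held its call in 1 of the 8 fits that leave out a library. The calls of Arxes1, Nxf3, Utp14a and Gm364 were lost without the block and with DESeq2.

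The position of the lower genes along the chromosome was looked at after their values were seen. Of the 12 tested genes at chrX:135742733-136247139 (mm10), 5 were called lower and 0 higher, beside 6.07 % lower and 4.45 % higher over all genes. The 5 are Gprasp2, Arxes2, Arxes1, Nxf3 and Tceal9, whose calls held in 4, 5, 2, 3 and 8 of the 8 fits that leave out a library. The log2 changes of the other 7 did not pass the test and were -0.52 for Bex2, -0.06 for Armcx5, -0.04 for Bex4, -0.03 for Gprasp1, -0.02 for Bhlhb9, 0.16 for Tceal8 and 0.33 for Bex1. Gprasp2 lies within the span of Bhlhb9, and Arxes1 and Arxes2 are near copies of each other. In the wider stretch from 120 to 140 Mb, 5 of 23 tested genes were called lower and 1 higher. No test was made of this grouping.

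Klhl13 headed the genes whose CAST share grew. It encodes a substrate adaptor of a Cul3 ubiquitin ligase. Its log2 ratio at day 3 was -0.02, 0.01, -0.29 and -0.40, and at day 5 it was 1.09, 1.83, 0.87 and 1.27. The alleles were close to equal at day 3 in the shSetdb1.4 libraries, and CAST reads outnumbered 129 reads in all 4 libraries of day 5. The log2 change was 1.44 (SE 0.15, adjusted p = 7.38e-20). Reads of both alleles rose, by 2.07 on the log2 scale for CAST (SE 0.15) and 0.63 for 129 (SE 0.15), and 4 of 4 SNPs had a higher ratio. In Nons the ratio of Klhl13 rose by 1.16, and the difference from the knockdown did not pass the test (0.28, SE 0.25, adjusted p = 0.539).

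Tmem47, a membrane protein of cell junctions, had log2 ratios of -1.56, -1.37, -1.44 and -1.23 at day 3 and -0.24, -0.01, -0.41 and -0.35 at day 5. Its 129 excess was thus largely lost without CAST becoming the larger allele, a log2 change of 1.17 (SE 0.21, adjusted p = 2.58e-06). Slc6a8, the creatine transporter, went from -1.63, -0.95, -1.03 and -0.84 to -0.33, 0.13, 0.11 and -0.45. Its ratio rose by 0.98 (SE 0.20, adjusted p = 5.52e-05) although CAST reads fell by 0.99, because 129 reads fell by 1.93 on the log2 scale.
Lrch2 went from -0.74, -1.31, -1.07 and -1.81 at day 3 to 0.32, 0.30, 0.13 and 0.14 at day 5. Its log2 change was 1.56 (SE 0.34, adjusted p = 0.000236), with 129 reads lower by a log2 change of -0.86 (SE 0.24) and CAST reads at 0.69 (SE 0.28, adjusted p = 0.0578). It had few reads, between 9 and 24 CAST reads in each day 3 library, and 8 of 8 SNPs had a higher ratio at day 5.
Alg13, which acts in the assembly of N-glycans, changed by 0.51 (SE 0.12) and the actin crosslinker Flna by 0.38 (SE 0.11). Of their SNPs 17 of 21 and 17 of 17 had a higher ratio at day 5. The call of Alg13 was lost with 1 SNP per gene, and that of Flna with 1 SNP per gene, without the block and in 4 of the 8 fits that leave out a library. The log2 changes of 1810030O07Rik, Atp6ap2, the deubiquitinase Usp9x and Xk were 1.21, 0.65, 0.37 and 0.79. Their calls held in 3, 4, 1 and 3 of the 8 fits that leave out a library, all 4 were lost with DESeq2, those of Usp9x and Xk also without the block, and those of Atp6ap2 and Usp9x also with 1 SNP per gene. Gla, the lysosomal alpha-galactosidase, was the remaining gene called higher (1.11, SE 0.39, adjusted p = 0.0377), and its libraries overlapped between the days. Its call held in 1 of these 8 fits and was lost without the block, with DESeq2, with no filter on genes, with centred ratios and with 1 SNP per gene.

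**Figure D2:**
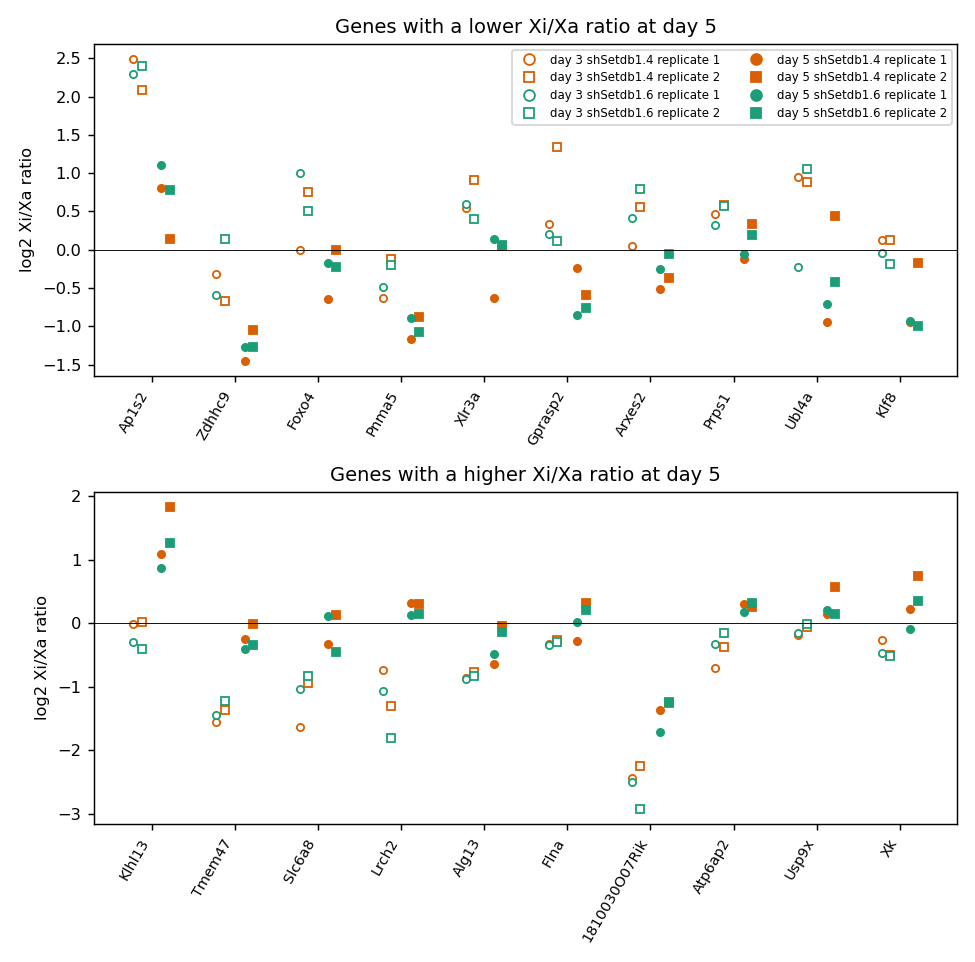
log2 Xi/Xa ratio (vertical axes) of the 10 named genes with a lower and the 10 with a higher ratio at day 5, with 1 point for each of the 8 knockdown libraries (open, day 3, filled, day 5; colour, hairpin; circle, replicate 1; square, replicate 2). The day 5 points of Ap1s2 (0.14 to 1.11) lie below those of day 3 (2.08 to 2.49), and those of Klhl13 (0.87 to 1.83) above those of day 3 (-0.40 to 0.01).

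The calls that held in each of the 8 fits leaving out a knockdown library were those of Ap1s2, Tceal9, Klhl13, Tmem47, Slc6a8, Lrch2 and Alg13. Those of Tceal9 and Klhl13 held with 1 SNP per gene, and those of Slc6a8 and Alg13 were lost (adjusted p = 0.101 and 0.224). Ap1s2, Tmem47 and Lrch2 could not be tested in that fit. With 1 SNP per gene, so that a read counts once, 140 genes could be tested and 5 changed, 4 of them among the 16 testable genes called with all SNPs. The replicate experiments were also fitted separately in the 8 knockdown libraries, an alternative added after the data were seen. Replicate 1 gave 3 genes higher and 5 lower, and replicate 2 gave 10 higher and 7 lower. The median log2 change over all genes was -0.17 in replicate 1 and 0.13 in replicate 2. The test of the difference between replicates called 0 genes with edgeR (13 at an unadjusted p under 0.05), and DESeq2 was not run on it.

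The genes with a lower ratio at day 5 of Nons were then followed under knockdown. They were chosen by the ratio and not by a fall of CAST reads. In Nons the ratio changed in 25 genes (10.1 %), with 24 lower at day 5 than at day 3 (9.72 % of genes tested) and 1 higher (0.405 %). The median log2 change of these 24 genes was -1.28 in Nons, which is how they were chosen, and -0.46 with knockdown, in libraries that the choice did not use. With knockdown 22 of the 24 had a negative log2 change, against 107 of the 223 other genes, whose median was 0.02. At the adjusted threshold 8 of the 24 were lower with knockdown: Ap1s2, Zdhhc9, Arxes2, Klf8, Pnma5, Utp14a, Gm364 and Prps1. Of the 223 other genes 7 were lower, and over all genes it was 15 of 247 (6.07 %). Those that did not pass it included Piga, an enzyme of GPI anchor synthesis (0.26 with knockdown and -1.67 in Nons), and Pcyt1b, an enzyme of phosphatidylcholine synthesis (-0.07 and -0.78).
The knockdown change lay above the Nons change in 191 of all 247 genes, with a median difference of 0.33 on the log2 scale. It did so in 167 of the 223 other genes and in all of the 24, whose count is no test because they were selected by their Nons values. The difference of the 2 changes passed the threshold in 2 of the 247 genes (0.81 %, 32 at an unadjusted p under 0.05), of which Piga is 1 of the 24. The 15 genes called lower with knockdown, chosen by those values, had a median log2 change of -0.81, and of -0.79 in Nons. The 11 called higher had 0.98 and 0.30. The difference passed in 1 of the 15 and in 0 of the 11. DESeq2 and the fit without the block called 0 genes for this difference (19 and 26 at an unadjusted p under 0.05). Without day 5 shSetdb1.4 replicate 1 it was called in 11 genes, 10 of them with a higher change under knockdown. It was called in 0 genes without day 3 Nons replicate 2 or day 5 Nons replicate 1, and in 1 gene without day 3 shSetdb1.4 replicate 1, day 3 shSetdb1.6 replicate 2, day 5 shSetdb1.4 replicate 2, day 5 shSetdb1.6 replicate 1 or 2, or day 5 Nons replicate 2.

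**Figure D3:**
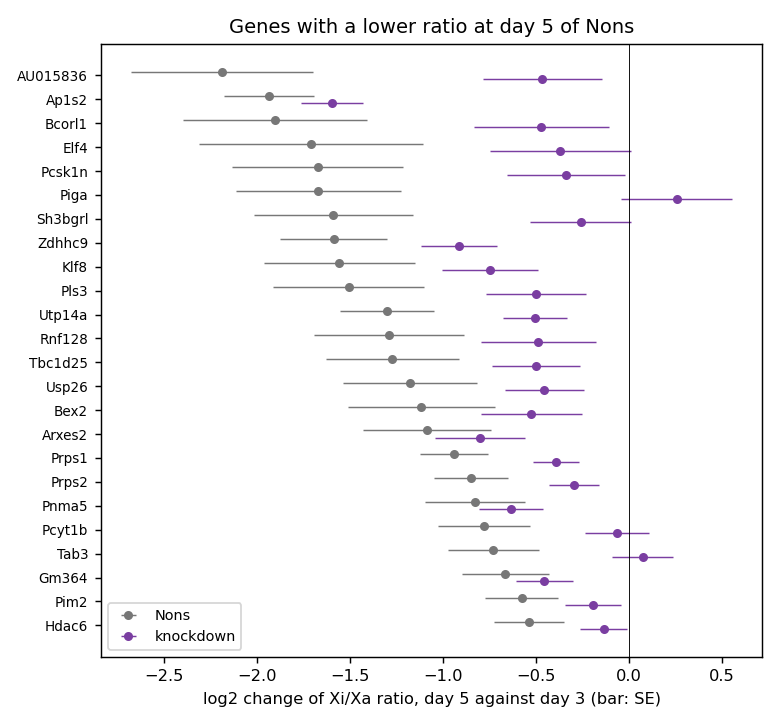
log2 change of the Xi/Xa ratio from day 3 to day 5 (horizontal axis) with its standard error, in Nons (grey, 2 libraries a day) and with knockdown (purple, 4 libraries a day), for the 24 genes called lower in Nons. Ap1s2 has the lowest knockdown change (-1.60), and Piga (0.26) and Tab3 (0.07) have a positive one.

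Reads of the CAST allele changed from day 3 to day 5 in 94 genes (38.1 %), with 48 higher (19.4 % of those tested) and 46 lower (18.6 %). Reads of the 129 allele changed in 118 (47.8 %), with 57 higher (23.1 %) and 61 lower (24.7 %). Of the 48 genes that gained CAST reads, 41 also gained 129 reads and 0 lost them, and of the 46 that lost CAST reads, 35 also lost 129 reads. The remaining 7 genes with a gain of CAST and no call for 129 reads were Atp6ap2, Fundc1, G6pdx, Rab9, Rbmx, Tceanc and Xk. Of these 7, the ratio was called higher in Atp6ap2 and Xk. In Xk, which encodes a membrane protein of red cells and other tissues, the CAST reads had a log2 change of 0.90 (SE 0.24, adjusted p = 0.00684) and the 129 reads one of 0.11 (SE 0.22, adjusted p = 0.708).
The named gains of CAST reads, given as log2 changes, were 3.30 for Tmem47 (SE 0.19), 2.96 for Sh3bgrl (SE 0.19), 2.07 for Klhl13, 2.09 for Shroom2, 2.29 for Map3k15, 2.65 for Tspan7, 2.37 for Armcx2 and 1.10 for Flna. The corresponding changes of 129 reads were 2.13, 3.24, 0.63, 2.47, 2.19, 2.48, 2.32 and 0.73. The ratio was called only in Tmem47, Klhl13 and Flna among these 8 genes. In the others the gain of CAST reads came with a gain of 129 reads of similar size.
Among the 15 genes with a lower ratio, CAST reads were lower in 5 (Ap1s2, Pnma5, Xlr3a, Prps1 and Klf8) and not called in 10. The 129 reads were higher in 5 of these 10 (Zdhhc9, Foxo4, Gprasp2, Tceal9 and Gm364). Among the 11 with a higher ratio, CAST reads were higher in 5 and 129 reads were lower in 5.

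**Figure D4:**
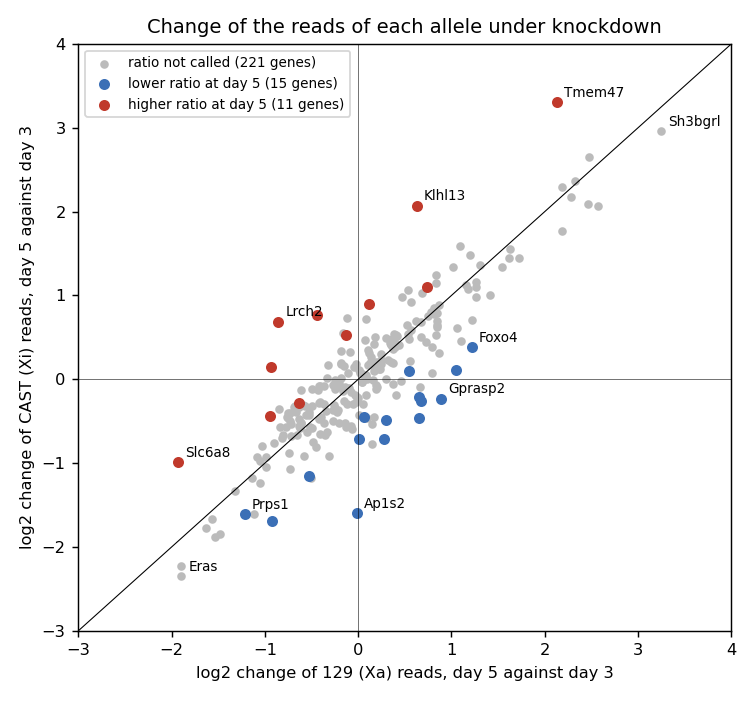
log2 change of CAST reads (vertical axis) against that of 129 reads (horizontal axis) between day 3 and day 5 of knockdown, with 1 point for each of the 247 genes and the line of equal change. Most points lie near the line, Tmem47 and Klhl13 lie above it with gains of both alleles, and Ap1s2 lies below it with a change of 129 reads of -0.01.

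Total reads, the sum of both alleles, were compared as levels per 10000 X-linked SNP reads after TMM scaling, so a shift shared by the whole chromosome is not seen. They changed in 126 of the 247 genes (51 %), with 61 genes higher (24.7 %) and 65 lower (26.3 %). Of these, 56 of the higher and 63 of the lower genes moved the same way in all 4 pairs, and in 42 and 50 the libraries of the days did not overlap. Over all genes 19.8 % were higher and 21.9 % lower without overlap. A log2 change beyond 1 was found in 25 of the higher and 16 of the lower genes.

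The largest rise of the total was that of Sh3bgrl, a small protein related to glutaredoxins. It had 6.41, 6.0, 9.59 and 12.2 reads per 10000 at day 3 and 86.4, 51.7, 77.2 and 74.2 at day 5, a log2 change of 3.10 (SE 0.18, adjusted p = 3.90e-09). Tmem47 rose from 15.6, 16.8, 19.7 and 18.8 to 136, 131, 83.4 and 79.9 (log2 change 2.56, SE 0.14). Tspan7, a tetraspanin of the cell membrane, and Armcx2, an armadillo repeat protein, rose by 2.56 and 2.35 on the log2 scale.
The ubiquitin ligase Rnf128, the actin-binding protein Shroom2, the kinase Map3k15 and the kinase Pim2 rose by 2.30, 2.27, 2.24 and 2.20. In Pim2 the day 5 values were 94.9, 578, 193 and 201 against 91.0, 95, 28.8 and 27.9 at day 3, so that shSetdb1.4 replicate 1 stayed at the level of day 3 and the days overlapped. In the other 7 of these genes they did not overlap.

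The largest fall was that of Eras, a protein of the Ras family. It had 31.6, 29.3, 15.3 and 16.3 reads per 10000 at day 3 and 3.00, 5.87, 6.20 and 4.15 at day 5, a log2 change of -2.17 (SE 0.28, adjusted p = 2.10e-05). In the untransduced libraries of day 0 Eras was at 2.98 and 9.54, below the day 3 libraries. Ebp, the sterol isomerase of cholesterol synthesis, fell from 90.0, 73.9, 39.9 and 43.1 to 16.3, 19.5, 22.0 and 13.5 (log2 change -1.70, SE 0.18). At day 3 Eras and Ebp were both higher in the shSetdb1.4 than in the shSetdb1.6 libraries, and at day 5 the hairpins overlapped.
Pcsk1n, the precursor proSAAS, fell by 2.07 on the log2 scale, Zmym3 by 1.66, the ETS factor Elf4 by 1.64, the glypican Gpc4 by 1.63, Slc6a8 by 1.57 and Prps1 by 1.43. The libraries of the days did not overlap in any of these 8 genes. Each of the 16 named rises and falls held its call in all 8 fits that leave out a library.

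**Figure D5:**
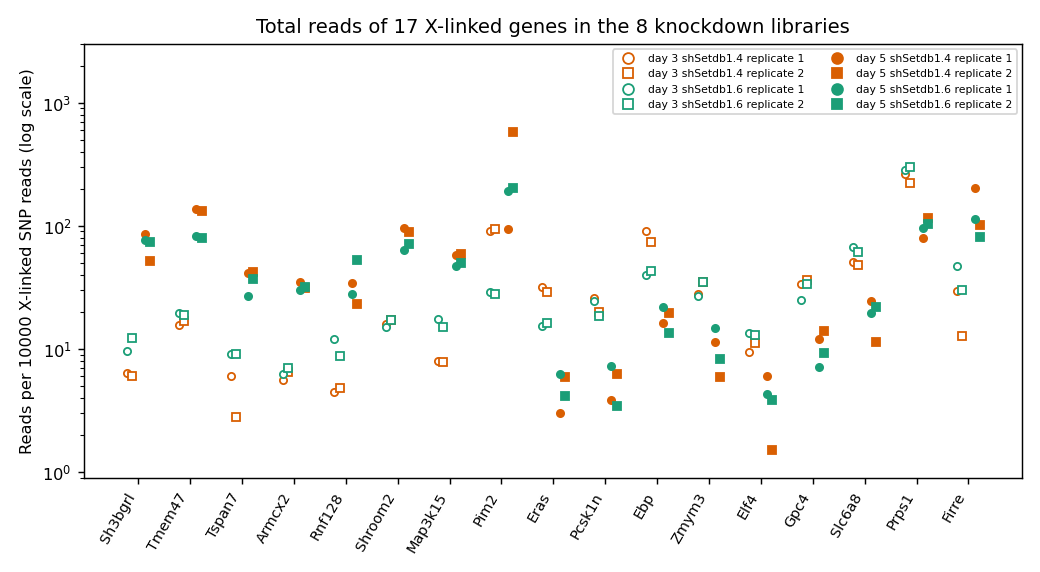
Total reads per 10000 X-linked SNP reads (vertical axis, log scale) of the 16 named genes and Firre in the 8 knockdown libraries (open, day 3, filled, day 5; colour, hairpin; circle, replicate 1; square, replicate 2). Sh3bgrl lies between 6.0 and 12.2 at day 3 and between 51.7 and 86.4 at day 5, and Eras between 15.3 and 31.6 and between 3.00 and 6.20.

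Totals changed in Nons too, in 89 genes (36 %), 43 higher (17.4 %) and 46 lower (18.6 %). Of the knockdown calls 83 were shared with Nons in the same direction and 0 in the opposite one, which is 65.9 % of the knockdown calls and 93.3 % of the Nons calls. These comparisons share no libraries. The change of the total differed between knockdown and Nons in 0 genes with edgeR (5 at an unadjusted p under 0.05) and in 0 genes with DESeq2 (3 at an unadjusted p under 0.05).

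The genes were also counted in lists drawn up by role, and the placement of single genes, such as Praf2 under metabolism, is approximate. Of 7 tested genes tied to pluripotency or its exit, the total was higher in 4 and lower in 0, with log2 changes of 1.48 for Klhl13, 1.21 for the ubiquitin ligase Rlim, 0.82 for the phosphatase Dusp9 and 0.68 for the glycosyltransferase Ogt. Their median was 0.68, beside -0.01 over all 247 genes. Of these, only the ratio of Klhl13 was called. Of 11 lineage-associated genes 3 were higher and 5 lower, among them Gpc4 (-1.63), Tspan7 (2.56), Flna (0.91) and Elf4 (-1.64).
Of 28 genes of metabolism, 4 were higher and 12 lower, with a median of -0.38. The lower ones included Prps1, Ebp, Praf2 (-1.0) and the glycerol kinase Gk (-0.96). In this list the ratio was called higher in 3 genes (Atp6ap2, Gla and Alg13) and lower in Prps1. Of 17 genes of translation and RNA processing 3 were higher and 6 lower, led by the tRNA methyltransferase Ftsj1 (-0.93), Eif2s3x (-0.57), Rbmx (0.84) and the cold-inducible RNA-binding protein Rbm3 (1.13). The calls of Rbmx and Rbm3 held in 6 of the 8 fits that leave out a library.
Of 34 genes of trafficking and signalling 11 were higher and 8 lower. Armcx2 (2.35), the chloride channel Clcn5 (1.53) and Gprasp1 (0.79) were higher, and Ap1s2 (-1.18) was lower. Of 19 chromatin genes 5 were higher and 3 lower, and the ratio was called in 0 of the 19. Examples are the deacetylase Hdac6 (-0.81), the Mediator subunit Med14 (1.07), Ogt and Kdm6a (0.78).
Of 5 genes known to escape X inactivation, the total of the demethylase Kdm6a was higher and those of Eif2s3x (-0.57), Pbdc1 (-0.41) and Ddx3x (-0.35) were lower, and the ratio was called in 0 of 5, with a median of 0.19. Of 4 germline genes, Taf7l was higher (1.62) and Xlr3a lower (-0.38) in the total, and the ratio was lower in Xlr3a and Nxf3. The calls of the totals of Xlr3a and Ddx3x were lost without the block and with no filter on genes, that of Xlr3a also with DESeq2, and those of Xlr3a, Pbdc1 and Ddx3x with 1 SNP per gene and in the fit of the 8 knockdown libraries alone. Those of Xlr3a, Pbdc1 and Ddx3x were lost in 7, 4 and 7 of the 8 fits that leave out a library. Of 3 genes of the X inactivation centre 1 was higher, Rlim. Several genes stand in more than 1 of these lists, and the shares of genes called over all 247 (24.7 % higher and 26.3 % lower) are the background for each count of totals, and those of the ratio (4.45 % higher and 6.07 % lower) for each count of ratio calls.

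The hairpins were compared with each other in the same fits. With shSetdb1.4 alone the ratio changed in 11 genes (4.45 %), 6 higher (2.43 %) and 5 lower (2.02 %), and with shSetdb1.6 alone in 9 genes (3.64 %), 4 higher (1.62 %) and 5 lower (2.02 %). For shSetdb1.4 the count was 5 and 6 without its day 3 replicates 1 and 2. For shSetdb1.6 it was 4 without either of its day 3 replicates and 3 and 5 without its day 5 replicates 1 and 2. The change itself differed between the hairpins in 6 genes (2.43 %, 16 at an unadjusted p under 0.05), among them Tceal9, Txlng, Arxes1 and Maoa. DESeq2 and the fit without the block called 0 genes here (14 each at an unadjusted p under 0.05). It was called in 0 genes without day 5 shSetdb1.6 replicate 1, in 2 without day 3 shSetdb1.4 replicate 1, day 3 shSetdb1.6 replicate 1 or day 5 shSetdb1.6 replicate 2, and in 3 without day 3 shSetdb1.4 replicate 2.

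For totals the change differed between the hairpins in 1 gene, Firre (0.405 %, 27 genes at an unadjusted p under 0.05). Firre makes a long RNA that is transcribed from the X chromosome and binds chromatin in the nucleus. Its total was 29.5, 12.8, 47.2 and 30.2 reads per 10000 at day 3 and 203, 101, 114 and 81.7 at day 5. The rise was 2.87 on the log2 scale with shSetdb1.4 (SE 0.21) and 1.36 with shSetdb1.6 (SE 0.19), and all libraries of day 5 lay above those of day 3. The difference of the rises was -1.51 (shSetdb1.6 minus shSetdb1.4, SE 0.28, adjusted p = 0.0170). It passed the threshold with DESeq2 and in 4 of the 8 fits that leave out a library and not without the block (adjusted p = 0.629), all alternatives added after the data were seen. The Xi/Xa ratio of Firre was between -2.22 and -1.57 at day 3 and between -2.45 and -2.09 at day 5, and its change did not pass the test (-0.41, SE 0.21, adjusted p = 0.220). In Nons the total of Firre rose by 2.16 (SE 0.20), a value between those of the hairpins.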

How the data were processed

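Single-end reads of 100 bp were aligned by the authors to mm10 (Subread), and SNPs of the Mouse Genomes Project were read out with samtools pileup. The deposited values are raw counts of reads per allele and SNP, and replicates were not pooled. 4 count columns of 2 other samples in the table were not used. Each SNP was assigned to the gene whose GENCODE M21 exons hold it (2173 of 2239 SNPs), 31 in exons of 2 genes and 35 outside exons entering only the library medians. 43.9 % of SNPs in genes lie within a read length of another, so a read can be counted more than once. Strand-specific counting is not stated.

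All 14 libraries were fitted with edgeR 4.0.16 (R 4.3.3), quasi-likelihood test, Benjamini-Hochberg adjustment over 247 genes, threshold 0.05. Ratios were fitted to the CAST and 129 counts with library terms, allele effects of the conditions and an allele effect of the replicate, the block, since the study compared libraries within its replicate experiments. Same-numbered knockdown libraries deviated together weakly (mean correlation across genes 0.091 for ratios, 0.15 for totals). Totals and single alleles were fitted with TMM factors of the totals and the same block. P-values rest on a spread between these libraries that edgeR estimates in part across genes, and not on that of the named gene alone. Read counts without molecular identifiers are not independent molecules. DESeq2 1.42.0 was the alternative. Medians and tables came from pandas 2.3.3 and numpy 2.4.6 (Python 3.11.15). The models were tested on simulated data.

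Named genes are the 10 with the smallest adjusted p and a change in the same direction in all 4 pairs for lower and for higher ratios, the 8 largest rises and 8 largest falls of totals among genes called with all pairs alike, 8 gains of CAST reads, up to 5 genes for each interaction, and examples from gene lists in order of adjusted p. Others were named to complete a count or after their values were seen. The libraries, gene lists and rules were chosen with earlier results of these data known. Xist was not analysed here. 1 gene named by the rule is not reported here, and it stays in the counts over all genes.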

Additional observations from a re-analysis of the deposited data

Results flagged for a closer look

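The change of the library median from day 3 to day 5 of knockdown was negative with both hairpins in replicate 1 (mean -0.18) and positive with both in replicate 2 (mean 0.107). This difference between the replicate experiments was not tested on the medians.

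A single library stood apart from the other 3 of its day in 5 of 74 groups tested by Dixon's ratio of gap to range (critical value 0.829), and chance marks about 1 in 20. The ratio of Ubl4a was lower in shSetdb1.6 replicate 1 at day 3 (-0.22, Dixon ratio 0.866). Xk was higher in shSetdb1.4 replicate 1 at day 3 (-0.26, Dixon ratio 0.835). At day 5 Xlr3a was lower in shSetdb1.4 replicate 1 (-0.64, Dixon ratio 0.886), and Klf8 and Usp9x were higher in shSetdb1.4 replicate 2 (-0.17 and 0.56, Dixon ratios 0.913 and 0.840).

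The change of the ratio differed between the hairpins (interaction term, edgeR), given as shSetdb1.6 minus shSetdb1.4. That difference was -1.30 for Tceal9 (adjusted p = 0.000265), -3.08 for Txlng (0.0139), -2.42 for Arxes1 (0.0188) and 1.90 for Maoa (0.0430). These calls held in 7, 3, 2 and 1 of the 8 fits that leave out a knockdown library, and all 4 were lost without the block and with DESeq2. Txlng had between 4 and 16 CAST reads in the day 3 libraries, and Arxes1 had 4 reads of 129 in day 3 shSetdb1.6 replicate 1. Between knockdown and Nons the change differed by -1.14 for Tceal9 and by 1.93 for Piga, calls that held in 10 and 4 of 12 such fits. The rise of the total of Firre differed between hairpins by -1.51.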

How the results depend on the processing

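The main fits hold the replicate block, and without it 16 genes changed their Xi/Xa ratio (26 with the block), 16 of them shared, and 0 genes differed between hairpins or between knockdown and Nons. DESeq2 called 14 genes for the ratio, 5 for shSetdb1.6 alone and 0 for both differences. With 1 SNP per gene, where 140 genes are tested, 5, 2 (shSetdb1.4) and 2 (shSetdb1.6) genes changed their ratio, 1 gene differed between hairpins and 1 between knockdown and Nons, and 57 totals, 28 CAST and 48 129 levels changed. With at least 30 reads 3 genes differed between hairpins and 1 between knockdown and Nons. With centred ratios 19 genes changed with shSetdb1.4 and 1 differed between knockdown and Nons. The 4 libraries of shSetdb1.6 alone gave 3 genes. Replicate 1 alone gave 8 genes and replicate 2 alone 17. Leaving out 1 library gave 11 to 25 genes for the ratio, 5 to 16 for shSetdb1.4, 3 to 13 for shSetdb1.6, 0 to 7 for the hairpin difference, 0 to 11 for the difference from Nons, 91 to 111 for totals, 66 to 90 for CAST and 90 to 111 for 129 reads, and a change of the library median between -0.111 and 0.042. The causes were not tested, beyond the fewer genes or libraries in these fits. Apart from the fits that leave out 1 library, 22 alternatives of the main results moved and 44 did not. Moved means a count beyond 1.5 times the main one, or for the library median a shift of at least its SD over the pairs. Depth limits the genes near 10 reads a library, where a ratio is imprecise.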
